A study of Drosophila melanogaster with 34 samples.

Results

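The genes encoding the proteins of the cytosolic ribosome were followed across single Drosophila melanogaster embryos with and without light-inactivated Zelda. Members were all rows of the count table whose FlyBase symbol is RpL or RpS followed by a digit, or RpLP0, RpLP1 or RpLP2. This rule gave 90 of 17491 genes, of which 50 encode large-subunit proteins, 37 small-subunit proteins and 3 the stalk. After a filter on low counts 87 of them could be tested among 9519 genes. The 3 that could not be tested, RpL7-like, RpS28a and RpS28-like, had at most 6 counts in any library.

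Zelda is a maternally supplied transcription factor that opens chromatin at early zygotic genes, and CRY2-ZLD is Zelda fused to a plant cryptochrome that clusters under blue light and so inactivates it. All embryos carried His2AvRFP, a red fluorescent histone used for staging, and those without CRY2-ZLD are called wild type here. Light of 488 nm was given over nuclear cycles (NC) 10 to 14, 10 to 12 or 13 to 14, or in NC14 alone, to both genotypes, and a further CRY2-ZLD group had no light. Every embryo was collected 30 min into NC14, and its poly(A) RNA was made into 1 library. The NC10-14 groups held 3 embryos each and the other 7 groups 4, for 34 libraries, 15 of them wild type and 19 CRY2-ZLD. There was no wild-type group without light, so in the unlit comparison genotype and light cannot be told apart, and nothing in the labels separates the CRY2-ZLD fusion from other differences between the fly lines. The zld transcript itself checks nothing here, since light acts on the protein: its log2 difference between genotypes passed the test in the NC10-12 window alone, at 1.35 ± 0.28 (SE, adjusted p = 0.000377, edgeR), and lay between -0.27 and 0.15 in the other windows.

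Each ribosome joins a small subunit, which reads the mRNA, to a large subunit, which makes the peptide bond, and a flexible stalk on the large subunit recruits translation factors. Their proteins are needed in fixed proportions, and in flies the loss of 1 copy of many of these genes gives the Minute phenotype of slow growth and thin bristles. Early embryos live on ribosomes and ribosomal protein mRNA laid down by the mother. Several members exist as a pair of paralogues, and in some pairs one copy is used broadly and the other mainly in the germline.

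Libraries held 4382299 to 41210334 counts. Counts on the members made up 9.04% to 15.03% of the total in 33 libraries and 25.1% in wild type NC14 replicate 3. That library held the highest level of 79 of the 87 tested members. Among the libraries of the NC10-14, NC13-14 and unlit groups, the 10 named S1 to S10 had 9.04% to 11.1% of counts on the members and the 8 named S11 to S18 had 12.5% to 15.03%, a split that crosses both genotypes. Blastoderm genes such as eve, slam and Kr had counts in every library, while the muscle genes Mhc, Act57B and Mlp60A reached at most 2.35 CPM (counts scaled to the normalised library size). Other genes listed for later tissues were higher, with the neuronal gene elav at 3.23 to 279 CPM, the blood cell gene Hml at up to 20.1 and nrv2 at up to 13.6. In bulk embryos, fewer cells of a type and less RNA per cell cannot be told apart.

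**Figure D1:**
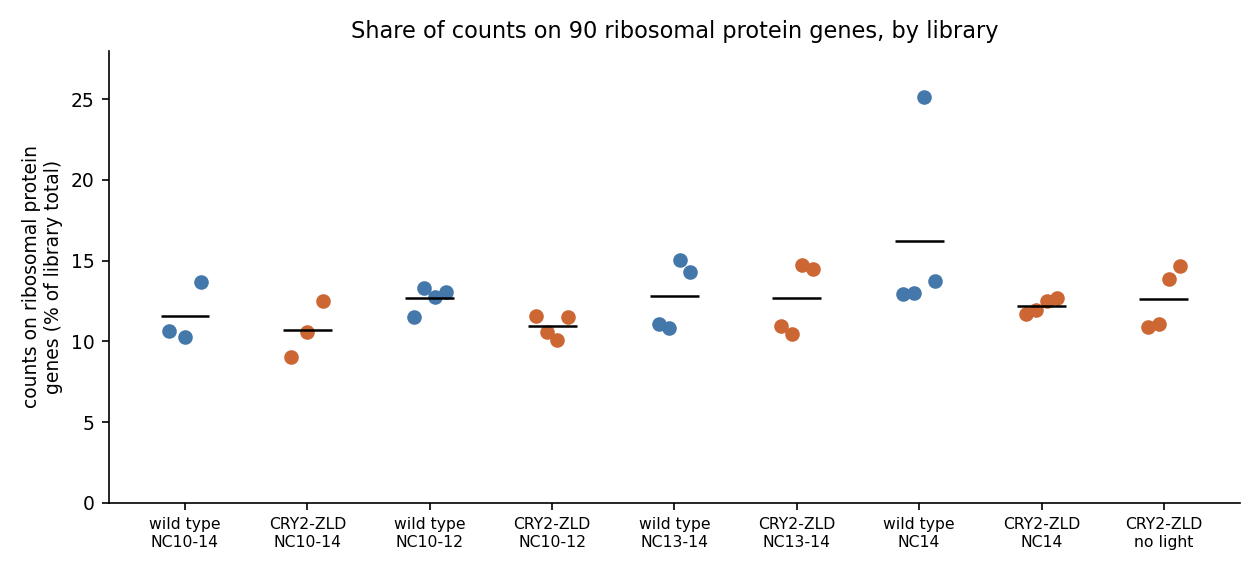
Percent of each library's counts that fell on the 90 ribosomal protein genes, by group; points are single embryos (blue wild type, orange CRY2-ZLD) and bars are group means. 33 libraries lie between 9.04% and 15.03%, and wild type NC14 replicate 3 lies apart at 25.1%.

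Levels are given as RPKM, read counts scaled to the summed exon length in kilobases and to the normalised library size. In wild type 81 members had a mean above 100 RPKM, 1 lay between 10 and 100 and 8 lay below 10. The most abundant was RpL41, the shortest ribosomal protein, at 10689 ± 5219 RPKM (SD, n = 15). RpL39, also a very short large-subunit protein, followed at 3939 ± 1007, then RpL27A at 3824 ± 1336, the stalk protein RpLP2 at 3562 ± 1793 and the small-subunit protein RpS3A at 3472 ± 443. Those from RpL39 to RpS3A do not differ beyond their spread, and the lowest RpL41 library, at 7030 RPKM, was above the mean of each. At the lower end of the abundant members were RpL24-like at 376 ± 148 and RpS14b at 340.2 ± 140.0, and RpS15Ab came next at 93.8 ± 26.6. Below a wide gap stood RpS19b at 1.46 ± 0.84 RPKM, and RpL37-2, RpL10Aa, RpL22-like and RpS10a had means under 0.37.

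The summed RPKM of the tested large-subunit members was 1.48 to 1.69 times that of the small-subunit members across the 34 libraries. This ratio averaged 1.54 in wild type and 1.58 in lit CRY2-ZLD. Over the wild-type embryos the SD of log2 RPKM was lowest for RpL5, at 0.17, and RpS3A, at 0.18. Among the 81 members above 100 RPKM the highest were RpLP1 at 0.57, RpL22 at 0.58 and RpLP0, the stalk base, at 0.98. Its levels at NC10-14 were 1021, 114.6 and 713 RPKM in the 3 wild-type embryos and 1117, 1345 and 1383 in the 3 CRY2-ZLD embryos. The second wild-type embryo stood far below the rest, and it also had the lowest level of RpS2, a small-subunit protein at the mRNA channel, at 777 RPKM.

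Which members depend on the genotype under light was asked in each light window separately. At NC10-14, NC10-12 and NC13-14 few members passed the edgeR quasi-likelihood test with Benjamini-Hochberg adjustment, although most member differences were negative. At NC10-14, 1 of 87 members was lower (7.58% of all tested genes were) and 1 higher (7.82% of all). At NC10-12 the counts were again 1 lower (16.5% of all genes) and 1 higher (16.9%). At NC13-14, 2 were lower (8.94% of all) and 2 higher (8.32%). The median log2 difference of the members, CRY2-ZLD minus wild type, was -0.26, -0.20 and -0.21 in these windows, beside 0.06, -0.01 and 0.07 over all tested genes. Negative values were held by 77, 81 and 77 of the 87 members. Between embryos of a group, the median log2 deviation of the members in a library had a pooled SD of 0.28. That SD is pooled over all 9 groups and includes wild type NC14 replicate 3, whose deviation was 1.23. Within wild type and CRY2-ZLD it was 0.23 and 0.36 at NC10-14, 0.15 and 0.18 at NC10-12, and 0.28 and 0.21 at NC13-14. Such an SD describes single embryos and is not the error of a difference between group means. A shift of the members as a group was not tested. The embryos of the 2 genotypes mostly overlapped: every CRY2-ZLD library lay below every wild-type library for 11 members at NC10-14 (15.7% of all genes), 2 at NC10-12 (15.3%) and 6 at NC13-14 (14.3%). These shares of the members, like the calls, are no larger than those of all genes.

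**Figure D2:**
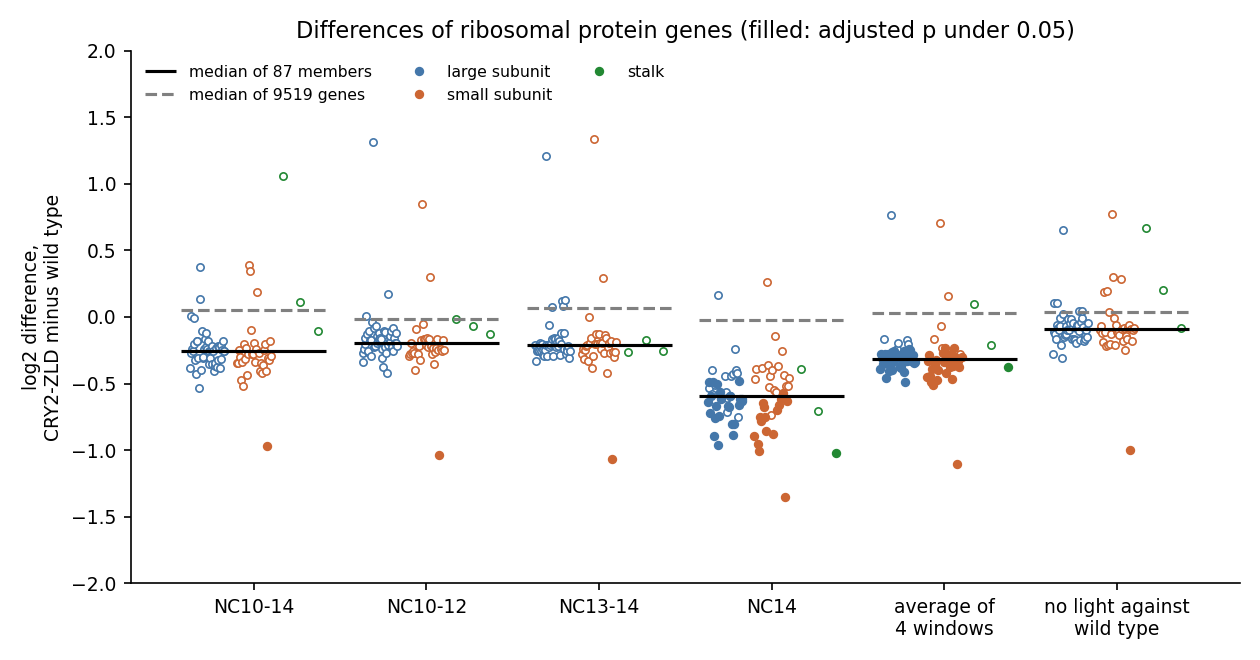
Log2 difference (CRY2-ZLD minus wild type) of each tested ribosomal protein gene in the 4 light windows, their average and the unlit comparison; filled points passed the test, black bars are medians of the 87 members and dashed bars medians of 9519 genes. Differences beyond 2 are not drawn (RpS10a, RpL10Aa and RpL37-2 in most comparisons); the member medians lie at -0.26, -0.20, -0.21, -0.60, -0.31 and -0.09.

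At NC14 alone, 44 of the 87 members were lower in CRY2-ZLD, against 9.65% of all genes, and 0 were higher, against 7.79%, with 0 higher in DESeq2 too. They comprised 27 large-subunit, 16 small-subunit and 1 stalk member. The median member difference was -0.60, beside -0.03 over all genes. For 37 members every CRY2-ZLD library lay below every wild-type library (8.37% of all genes), and for 1 member above (6.68% of all genes). Without wild type NC14 replicate 3, the library with 25.1% of its counts on members, 3 members were lower and the median was -0.24. In that fit 729 of 9489 genes were lower, with a median of -0.007 over all genes. The share of members called was thus no larger than that of all genes. Leaving out a library does not undo a separation between the genotypes at the RPKM given, and separated genes were not recounted without it. Without CRY2-ZLD NC14 replicate 1 there were 15 lower members, and without CRY2-ZLD NC14 replicate 2 there were 19.

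The 3 that remained were RpS5b, RpS10b and RpS3. RpS10b, a protein of the small-subunit head and the broadly used copy of its pair, had 1071, 939.9, 2245 and 1170.1 RPKM in the wild-type embryos and 674, 726, 736 and 780.0 in the CRY2-ZLD embryos. All 4 CRY2-ZLD values were below all 4 wild-type values, with or without the high one. The log2 difference was -0.90 ± 0.20 (SE, adjusted p = 0.0017, edgeR) and, without that embryo, -0.54 ± 0.16 (adjusted p = 0.0216). RpS3, which lies at the mRNA entry site, had 1865, 1824, 3254 and 2177 RPKM in wild type and 1283, 1410.5, 1525 and 1553 in CRY2-ZLD, and again the groups did not overlap. Its difference was -0.66 ± 0.15 (adjusted p = 0.00278, edgeR) and -0.44 ± 0.13 without that embryo (adjusted p = 0.0246), but it did not pass in a fit to the NC14 groups alone (-0.64 ± 0.20, adjusted p = 0.0672).

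Other members passed the test at NC14 only with that embryo included. RpLP2, a stalk protein, had 3280.2, 2873, 9551 and 4288 RPKM in wild type and 2161, 2300.0, 2731 and 2655 in CRY2-ZLD. The groups were apart, but the third wild-type embryo was above every other library of the 34, and the difference was -1.02 ± 0.28 (adjusted p = 0.00952, edgeR). Without it the groups were still apart, at -0.50 ± 0.23 (adjusted p = 0.162). RpL22, a large-subunit protein on the outer face, had 762, 651, 1732 and 789 RPKM against 489.7, 522, 368 and 636. Its difference moved from -0.96 ± 0.23 (adjusted p = 0.00341) to -0.54 ± 0.19 (adjusted p = 0.0514) without the high embryo, and its groups did not overlap either way. RpL22 shares 34.3% of its exon bases with a non-coding gene, lncRNA:CR42491, and the counting used no strand. RpS27, a small-subunit protein with a zinc finger, had 1103, 929, 2819 and 1111 RPKM in wild type and 1199, 1265, 1497 and 1426 in CRY2-ZLD. Apart from the third, the wild-type values were all below the CRY2-ZLD values, and the difference of -0.15 ± 0.21 did not pass (adjusted p = 0.698).

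**Figure D3:**
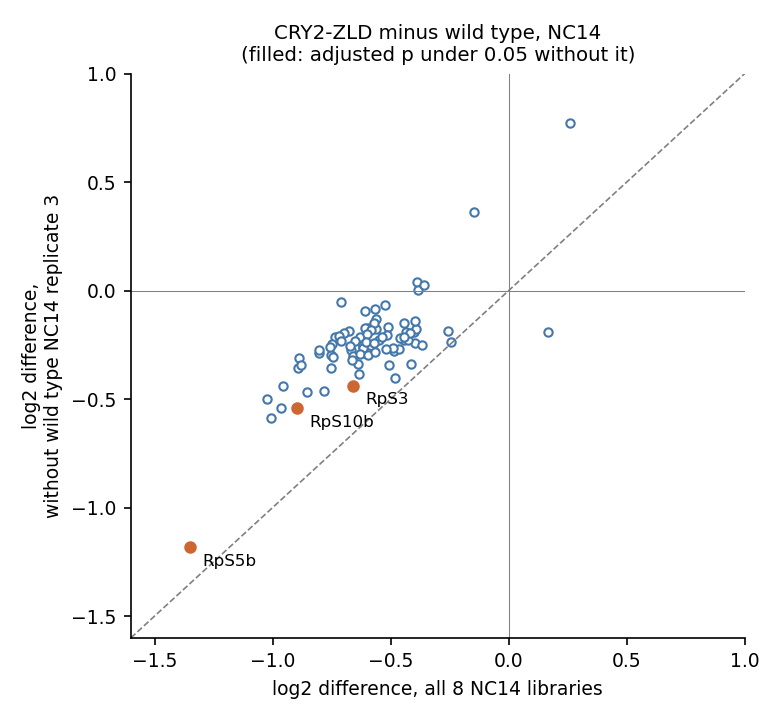
Log2 difference of each member at NC14 with all 8 libraries (x axis) and without wild type NC14 replicate 3 (y axis); the dashed line marks equal values, filled points passed the test without that library, and members with larger differences are beyond the axes. Most points lie above the line, and RpS5b, RpS10b and RpS3 are the filled ones.

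Averaged over the 4 light windows, which uses 15 embryos of each genotype, 69 of 87 members were lower in CRY2-ZLD, against 23.0% of all genes, and 2 were higher, against 25.9%. The median member difference was -0.31, with quartiles of -0.37 and -0.27, beside 0.03 over all genes. Without wild type NC14 replicate 3 the counts were 48 lower and 4 higher, with a median of -0.23. In that fit 2204 of 9489 genes were lower and 2512 higher, with a median of 0.04 over all genes. Leaving out CRY2-ZLD NC10-14 replicate 1 gave 45 lower and leaving out wild type NC10-14 replicate 4 gave 44. By subunit, 28 of 35 small-subunit members were lower with a median of -0.33, and 40 of 49 large-subunit members with a median of -0.30. Of the stalk members only RpLP2 passed, at -0.38 ± 0.14 (adjusted p = 0.0286, edgeR), and without wild type NC14 replicate 3 it did not (-0.25 ± 0.11, adjusted p = 0.0697). RpLP1 stood at -0.21 ± 0.16 (adjusted p = 0.287) and RpLP0 at 0.10 ± 0.21 (adjusted p = 0.735).

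Apart from RpS5b and the rare RpL10Aa, the lowest averages were modest. RpS15Aa, a small-subunit protein, had a median of 1802 RPKM over the wild-type embryos (range 1475 to 3665) and 1317 over the lit CRY2-ZLD embryos (938 to 1781). The ranges overlapped, and the averaged difference was -0.51 ± 0.11 (adjusted p = 0.000205, edgeR). For RpS3 the wild-type median was 1859 RPKM (1568 to 3254) and the lit CRY2-ZLD median 1385 (1072 to 1674), with an averaged difference of -0.46 ± 0.08 (adjusted p = 1.73e-05). RpL36A was at -0.49 ± 0.15, RpS14b at -0.49 ± 0.14, RpS18 at -0.47 ± 0.13 and RpL17 at -0.46 ± 0.15 (adjusted p from 0.00339 to 0.0138, edgeR). RpL41, the most abundant member, was at -0.27 ± 0.14 and did not pass (adjusted p = 0.105). RpS2 was at -0.07 ± 0.14 (adjusted p = 0.711) and RpS27 at 0.16 ± 0.11 (adjusted p = 0.242). Without wild type NC14 replicate 3, RpS27 was higher in CRY2-ZLD, at 0.29 ± 0.07 (adjusted p = 0.000755).

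Members lower on average were found on each chromosome arm that holds members: 13 of 14 on X, 15 of 17 on 2L, 11 of 13 on 3L, 16 of 22 on 3R, 13 of 20 on 2R and the single member on 4. Median differences by chromosome arm ran from -0.39 on X to -0.23 on 4. These values come from the fit that includes wild type NC14 replicate 3, in which 23.0% of all tested genes were lower. Shares of all genes were not taken by arm, so a difference between arms cannot be read as one of the members.

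RpS5b was the member that differed most plainly. It encodes a small-subunit protein and is known for its use in the ovary, and its paralogue RpS5a is known for broad use. RpS5b lies at chr3R:14900432-14901563 (dm6, minus strand) and RpS5a on X. In wild type RpS5b had 1501, 1360.2 and 1790.3 RPKM at NC10-14, and 1435, 1656, 1811 and 1700.3 at NC10-12. It had 1370.4, 1415, 2162 and 2015 RPKM at NC13-14, and 1712, 1609, 2619.8 and 1936 at NC14. No wild-type embryo was below 1360 RPKM in any window.

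In CRY2-ZLD embryos RpS5b had 614, 762 and 995 RPKM at NC10-14, and 651, 668, 887 and 1005 at NC10-12. At NC13-14 it had 849, 641, 976 and 861 RPKM, and at NC14 688, 776, 839 and 784. Without light it had 685, 715, 888 and 1007 RPKM. All 19 CRY2-ZLD embryos were thus below all 15 wild-type embryos, lit or not. RpS5b was the only one of the 87 tested members of which this held in either direction. Of all tested genes 0.882% were lower in this way and 0.578% higher, so 1 of 87 members is near the share of all genes.

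The log2 difference of RpS5b was -0.97 ± 0.22 at NC10-14 (SE, adjusted p = 0.00166, edgeR) and -1.04 ± 0.19 at NC10-12 (adjusted p = 8.91e-05). For NC13-14 it was -1.07 ± 0.19 (adjusted p = 8.53e-05), and for NC14 alone -1.35 ± 0.19 (adjusted p = 4.49e-06). The average over windows was -1.11 ± 0.10 (adjusted p = 7.74e-11), and it stayed between -1.15 and -1.06 when any 1 library was left out. CRY2-ZLD without light stood at -1.0 ± 0.17 against the wild-type NC10-14 and NC13-14 groups, which received light (adjusted p = 7.79e-05). Between lit and unlit CRY2-ZLD the difference was -0.06 at NC10-14 (95% interval -0.47 to 0.35) and 0.01 at NC13-14 (-0.36 to 0.39). The gap between genotypes was also present within each set of libraries named by S number. In S1 to S10, wild type had 1360 to 1501 RPKM and CRY2-ZLD 614 to 849, and in S11 to S18, 1790.3 to 2162 and 861 to 1007.

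RpS5a moved less. It had 450.3 to 912 RPKM in wild type and 326 to 734 in CRY2-ZLD, and these ranges overlapped. Its averaged difference was -0.32 ± 0.10 (adjusted p = 0.0102, edgeR), close to the median member, and without light it was -0.06 ± 0.17 (adjusted p = 0.824).

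**Figure D4:**
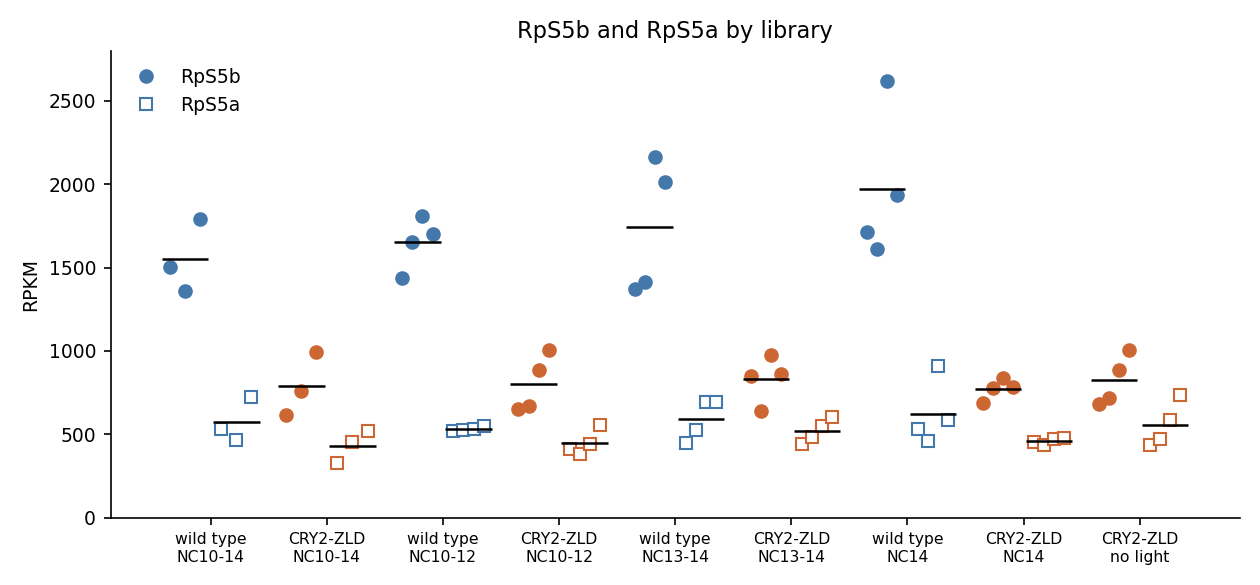
RPKM of RpS5b (filled circles) and RpS5a (open squares) in every embryo by group, with group means as bars; blue is wild type and orange CRY2-ZLD. RpS5b is at 1360 RPKM or more in all 15 wild-type embryos and at 1007 or less in all 19 CRY2-ZLD embryos, while RpS5a overlaps between genotypes.

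As a share of the pair's summed RPKM, RpS5b made up 75% ± 1.7 in wild type (SD, n = 15), 63.0% ± 2.7 in lit CRY2-ZLD (n = 15) and 59.8% ± 1.4 in unlit CRY2-ZLD (n = 4). No embryo of one genotype reached the range of the other: wild type lay between 71.2% and 77.7% and CRY2-ZLD between 57.0% and 66.7%. The averaged difference between genotypes was -11.8 percentage points, from -13.7 to -8.60 over the windows. In a two-sided permutation of genotype within light windows (100000 resamples) its p was 1e-05, the smallest these can give, and 5e-05 after adjustment over the 5 pairs in which both members were abundant enough to be compared. The unlit group differed from the 7 wild-type embryos of NC10-14 and NC13-14 by -14.2 points (two-sided exact permutation p = 0.00606, the smallest possible with 4 against 7, adjusted p = 0.0152).

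The RpS15A pair shifted the other way. RpS15Ab, the minor copy, made up 4.63% ± 0.43 of the pair in wild type and 5.83% ± 0.97 in lit CRY2-ZLD, a difference of 1.19 points (permutation p = 9e-05, adjusted p = 0.000225), with 1.03 to 1.40 in the 4 windows. In unlit CRY2-ZLD the share was 5.96% ± 0.76, 1.45 points above wild type (two-sided exact permutation p = 0.00606, adjusted p = 0.0152). The other pairs did not pass. RpS14b made up 26.7% ± 1.6 of its pair in lit CRY2-ZLD and 27.3% ± 2.0 in wild type, and RpL34a 29.7% ± 3.2 and 31.1% ± 2.2. RpL24-like, whose namesake is a biogenesis factor, stood at 29.4% ± 2.2 and 28.2% ± 2.6 beside RpL24 (adjusted permutation p = 0.268 for all of these). The counting command shows no option for reads that align to both copies, so the shares of pairs that are nearly identical in sequence are uncertain.

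Some rare paralogues differed by far more than the abundant members, on few reads. RpS10a, known for germline use in flies, lies at chr3R:27652760-27653363 (dm6) within the span of tau on the opposite strand. In wild type it had 0, 3 and 0 counts at NC10-14, 2, 3, 0 and 4 at NC10-12, 1, 0, 0 and 0 at NC13-14, and 0, 3, 0 and 0 at NC14. In CRY2-ZLD it had 193, 61 and 87 counts at NC10-14, 54, 403, 95 and 0 at NC10-12, 3, 3, 42 and 218 at NC13-14, 0, 18, 0 and 0 at NC14, and 113, 92, 12 and 0 without light. Every lit CRY2-ZLD embryo of NC10-14 was above every wild-type embryo, whereas 1 CRY2-ZLD embryo at NC10-12, 3 at NC14 and 1 without light had none. Over all embryos its 1394 counts in CRY2-ZLD against 16 in wild type gave a 68.0-fold higher rate, with a 95% interval of 41.7 to 119 that covers counting error only. RpS10a passed the edgeR test as higher at NC10-14 (adjusted p = 0.0294), NC10-12 (adjusted p = 0.00809), NC13-14 (adjusted p = 0.0158) and without light (adjusted p = 0.00279). At NC10-14 and NC13-14 these calls were lost when single libraries were left out (adjusted p up to 0.127). With a replicate block the calls at NC10-14 (adjusted p = 0.0547) and NC10-12 (adjusted p = 0.0829) were lost. The averaged call had an adjusted p of 1.67e-05. Without CRY2-ZLD NC14 replicate 2 the CRY2-ZLD NC14 group had only counts of 0. The averaged difference then could not be estimated (SE 4842), so that fit cannot decide the call. Even so RpS10a supplied at most 3.68% of the RPKM of its pair with RpS10b. Of 8 tested genes within 40000 bases of RpS10a, 1 was lower on average and 3 were higher (23.0% and 25.9% of all genes). Among the higher ones were tau at 1.69 ± 0.69 (adjusted p = 0.0441) and Tusp at 2.41 ± 0.58 (adjusted p = 0.000968). Without light 0 of the 8 were lower and 1 higher (15% and 16.6% of all genes), and tau did not pass (2.12 ± 1.16, adjusted p = 0.167). The part of these neighbours in the counts of RpS10a was not tested.

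RpL37-2, the rare copy beside RpL37-1, had 0 to 17 counts in wild-type embryos and 2 to 70 in CRY2-ZLD embryos. The unlit embryos had 70, 31, 13 and 31 counts, all above the 0 to 6 of the 7 wild-type embryos at NC10-14 and NC13-14. Its rate over all CRY2-ZLD embryos was 4.30-fold higher (95% counting interval 3.28 to 5.71). It passed as higher on average (2.18 ± 0.57, adjusted p = 0.0021, edgeR), without light (4.54 ± 0.96, adjusted p = 0.000746) and at NC13-14 (3.71 ± 1.25, adjusted p = 0.0362), the last lost when any of several single libraries was left out. At NC10-12 its counts were 4, 11, 0 and 17 in wild type and 15, 11, 3 and 7 in CRY2-ZLD and overlapped.

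RpL10Aa, another rare copy, at chr3R:15037366-15038149 (dm6), went down. It had 2, 11 and 24 counts in wild type at NC10-14, 2, 5, 8 and 2 at NC10-12, 9, 12, 11 and 0 at NC13-14, and 10, 0, 0 and 0 at NC14. CRY2-ZLD embryos had 0 to 2 counts, and the 8 of NC14 and of no light had 0. Wild type therefore had 96 counts against 6, a 20.5-fold higher rate (95% counting interval 9.08 to 57.3). Against the unlit group the wild-type rate was at least 13.7-fold higher, taking 3 counts over the group as the floor. RpL10Aa passed as lower on average (adjusted p = 0.000284, edgeR) and without light (adjusted p = 0.00597). Wild type NC14 replicate 1 was the only embryo of either NC14 group with counts. Without it the averaged difference could not be estimated (SE 4666), so that fit cannot decide the call. At NC13-14 it passed too (adjusted p = 0.0299), but not when any 1 of 5 of the 8 libraries was left out, nor in DESeq2 (adjusted p = 0.05003). Setting this gene at its bound leaves the member medians at NC14 and without light as given.

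**Figure D5:**
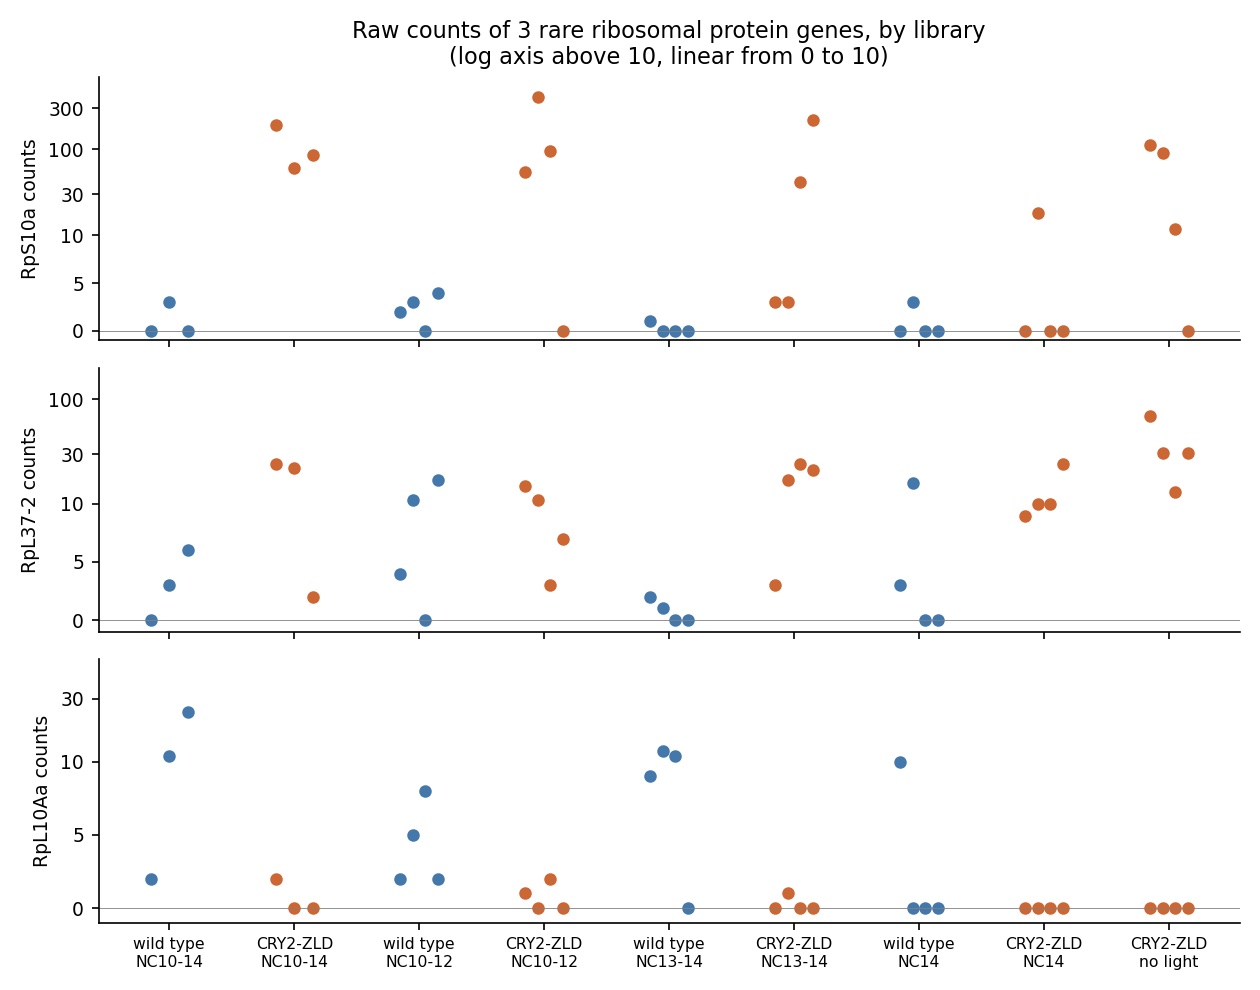
Raw counts of RpS10a, RpL37-2 and RpL10Aa in every embryo by group (blue wild type, orange CRY2-ZLD); the vertical axis is linear from 0 to 10 and logarithmic above. RpS10a and RpL37-2 are higher in most CRY2-ZLD embryos, and RpL10Aa has at most 2 counts in any of them.

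RpS19b, known for germline use, had 1 to 54 counts in wild type and 8 to 94 in CRY2-ZLD, with an averaged difference of 0.71 ± 0.33 (adjusted p = 0.0798, edgeR). Without wild type NC14 replicate 3 it passed as higher, at 0.84 ± 0.33 (adjusted p = 0.0363). Its partner RpS19a averaged -0.40 ± 0.13 (adjusted p = 0.0135). RpL22-like had 0 to 18 counts in wild type and 0 to 30 in CRY2-ZLD (0.77 ± 0.75, adjusted p = 0.414). RpL7-like shares 98.8% of its exon bases with CG34164.

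Without light, CRY2-ZLD differed from lit wild type in few members: 2 were lower, RpS5b and RpL10Aa, and 2 higher, RpS10a and RpL37-2, against 15% and 16.6% of all genes. The median member difference was -0.09, beside 0.04 over all genes. These 4 are also the members with the largest averaged differences under light, although both comparisons use the same NC10-14 and NC13-14 wild-type embryos.

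Whether light changes the members within a genotype was asked in 3 comparisons, and none called a member. CRY2-ZLD at NC10-14 against CRY2-ZLD without light gave 0 of 87, where 37.4% of all genes were called in either direction, and a median of -0.21. At an unadjusted p under 0.05 there was 1 member, and DESeq2 called 0. CRY2-ZLD at NC13-14 against no light gave 0 (13.1% of all genes), with 0 at an unadjusted p under 0.05, 0 in DESeq2 and a median of -0.06. Wild type at NC10-14 against NC13-14 gave 0 (18.5% of all genes), with 1 at an unadjusted p under 0.05, 0 in DESeq2 and a median of -0.11. An edgeR test of whether the genotype difference itself changed between the 4 windows called 0 members, against 7.87% of all genes. RpL22 came nearest (adjusted p = 0.0985), the only member with an unadjusted p under 0.05. The larger member count at NC14 than in the other windows was therefore not shown to be a difference between windows.

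Other genes of translation were set beside the members as lists. Of the 3 further proteins of the cytosolic ribosome, Rack1, a scaffold on the small subunit, was lower on average (-0.34 ± 0.10, adjusted p = 0.005, edgeR). The small-subunit protein sta was at -0.13 ± 0.14 (adjusted p = 0.488) and RpLP0-like, a biogenesis factor, at -0.08 ± 0.08 (adjusted p = 0.458). Among translation initiation and elongation factors 17 of 44 were lower and 1 higher on average (23.0% and 25.9% of all genes), with a median of -0.19. The elongation factor subunit eEF1gamma was lower (-0.46 ± 0.07, adjusted p = 2.24e-06) and the tissue-restricted eEF1alpha2 was higher (2.03 ± 0.23, adjusted p = 1.22e-08). Mitochondrial ribosomal proteins, which build a separate ribosome, had 14 of 71 lower and 8 higher and a median of -0.12. Both are smaller shares than those of all genes. The member of this list with the smallest p, mRpL18, was at -1.30 ± 0.12 (adjusted p = 1.49e-10).

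Ribosome biogenesis genes had 12 of 27 lower and 4 higher on average, with a median of -0.18. Nop60B, a pseudouridine synthase of ribosomal RNA, was lower (-1.04 ± 0.08, adjusted p = 8.96e-12, edgeR), as was Fib, the fibrillarin methyltransferase (-0.60 ± 0.10, adjusted p = 1.2e-05). Among growth regulators and genes of the Minute response, 2 of 14 were lower and 5 higher. Xrp1, which is induced in Minute cells, was higher (3.47 ± 0.26, adjusted p = 1.65e-12), as was its dimer partner Irbp18 (1.44 ± 0.25, adjusted p = 1.81e-05). In the unlit comparison Xrp1 was higher too (1.29 ± 0.39, adjusted p = 0.0125), and Irbp18 was at -0.18 ± 0.42 (adjusted p = 0.786). The ribosomal protein kinase S6k was lower on average (-2.05 ± 0.18, adjusted p = 5.29e-11). The averaged counts of these lists stand beside the 23.0% lower and 25.9% higher among all genes.

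Maternal and zygotic transcripts moved with the genotype under light as well. Of 20 early zygotic genes 19 were lower on average, with a median of -2.60, and their summed level ran from 9074 to 21766 CPM in wild type and 660 to 13642 in CRY2-ZLD. Of 20 maternal transcripts 2 were lower and 9 higher, with a median of 0.44 and summed levels of 2991 to 11574 and 3895 to 19553. In the unlit comparison 12 of these 20 were lower and 0 higher in edgeR, with a median of -1.02. Of the 20 early zygotic genes 4 were lower and 0 higher there. Among all genes 15% were lower and 16.6% higher without light, so the 4 lower ones are near that share. Of 8 pole cell genes, which mark the germline precursors, 1 was lower and 4 higher on average, with summed levels of 154 to 391 and 243 to 912. Follicle cell and yolk genes had 0 of 2 called, by edgeR, and at most 4.46 CPM in sum, with Cp36 and Vm26Aa each at 0 in 33 libraries. Blastoderm genes had 7 of 8 lower on average. These lists overlap: eve, ftz, slam, sna, Kr and gt are both blastoderm and early zygotic genes, and nos and osk both maternal and pole cell genes. The averaged counts of all these lists stand beside 23.0% lower and 25.9% higher among all genes. The part of these shifts in the levels of the members was not tested. Of the genes listed for later tissues, 1 of 6 tested was lower and 2 higher. The 1 was Mdh2, an enzyme that is not restricted to late tissues, with 309 to 449 CPM in wild type and 1.32 to 5.43 in CRY2-ZLD.

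The genes whose profile over the 34 libraries was most like that of RpS5b were eEF1gamma (Pearson r = 0.93), the tetraspanin Tsp3A (r = 0.92) and Nop60B (r = 0.91) outside the members, and RpS3 (r = 0.90), RpL5 (r = 0.87) and RpS15Aa (r = 0.85) among them. These values describe 34 libraries that share genotype, scale and depth. Tsp3A was lower without light too (-2.0 ± 0.24, adjusted p = 4.67e-07, edgeR), as was Nop60B (-1.0 ± 0.15, adjusted p = 9.52e-06), while eEF1gamma was at -0.30 ± 0.12 (adjusted p = 0.0532). The 3 lie on 3R, X and 2R. Of 14 tested genes within 40000 bases of RpS5b, 2 were lower on average and 2 higher (23.0% and 25.9% of all genes). They were btsz (-4.56 ± 0.20), UQCR-C1 (-0.46 ± 0.13), VhaPPA1-1 (0.55 ± 0.13) and Rrp6 (0.20 ± 0.08). In the unlit comparison, btsz was at 0.21 ± 0.29 (adjusted p = 0.634) and UQCR-C1 was higher (0.64 ± 0.21, adjusted p = 0.0208), unlike RpS5b.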

How the data were processed

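Poly(A) RNA of single embryos was sequenced with the TruSeq v2 kit, per the labels' protocols. The deposited table holds raw counts per gene made by the authors with featureCounts 1.5.3 on the FlyBase 6.20 annotation (dm6), with no strand or multi-mapping option in the command, per the file headers. Per the submitters' processing notes, Trimmomatic 0.36, HISAT2 2.1.0 and DESeq2 1.14.1 were also used. A column of the summed exon length in bases per gene, deposited with the counts, was used only for RPKM.

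Counts were normalised by TMM and tested with edgeR 4.0.16 (R 4.3.3; filterByExpr, minimum count 10; quasi-likelihood F test; 9 group means over 34 libraries; Benjamini-Hochberg adjustment over 9519 genes, threshold 0.05). Windows were compared by an interaction test, and pair shares by permutation in NumPy 2.4.6 and SciPy 1.17.1. Alternatives were DESeq2 1.42.0, other scalings, no filter, fits to the compared groups alone, a replicate block, a term for the S1 to S10 and S11 to S18 library names, and leaving out each library or 5 libraries that earlier work on these data judged to stand apart. Replicate libraries differed by 38.5 to 440.6 times the sampling noise (chi-square per degree of freedom), so none was taken as a duplicate. P-values measure the spread between embryos, and the labels do not say whether embryos shared parents. The test was checked on simulated counts. Named genes were those called, the paralogue pairs, the highest and lowest levels and differences, and the 3 smallest p per list. Members and lists were chosen with earlier results of these data known.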

Additional observations from a re-analysis of the deposited data

Results flagged for a closer look

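In wild type NC14 replicate 3, 25.1% of counts fell on the members, against 13.0%, 13.0% and 13.7% in the other 3 embryos of its group, so that this embryo lay far from the rest. The same embryo lay apart for RpL22, at 1732 RPKM beside 651 to 789. Of 56 sets of 4 embryos examined over 8 measures, these 2 held an embryo so far from the others, where chance gives about 1 in 20. A count of 2 is no more than that rate gives. Both rest on the same embryo, and RpL22 is itself a member. Its share of mt:lrRNA, 7.02%, was inside the 6.04% to 10.6% of its group, and its total of 17442871 counts was the lowest of the 4. The cause was not tested.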

How the results depend on the processing

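Among the named members, 507 alternative values kept their side of the threshold, 31 lost their call and 0 changed sign; RpS5b kept its call in all of those run. Counts of members called moved most at NC14 (44): 68 with the term for the S1 to S10 and S11 to S18 names, 3 in a fit to the compared groups alone, and 4 without the 5 libraries that stand apart, where the median was -0.23. Leaving out single libraries at NC14 gave 3 to 66 members and medians of -0.73 to -0.24; besides wild type NC14 replicate 3, CRY2-ZLD NC14 replicates 1 and 2 lowered the count to 15 and 19. The NC10-12 count of 2 became 5 in the fit to the compared groups and 8 without the 5 libraries. Single libraries gave 46 to 77 members for the average, 1 to 3 at NC10-14, 1 to 4 at NC13-14, 0 to 1 for CRY2-ZLD NC10-14 against no light (1 without the 5 libraries), 0 to 1 for the wild-type comparison and 0 to 1 between windows. The causes were not tested.

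Over all tested genes, deviations of same-numbered libraries correlated from -0.18 to 0.28, and the main fit used no pairing. In the NC10-14, NC13-14 and unlit groups, replicates 1 and 2 are named S1 to S10 and replicates 3 and 4 S11 to S18. The share of counts on the members was 9.04% to 11.1% in the first set and 12.5% to 15.03% in the second. For the members, replicate numbers thus follow a difference that both genotypes share. With the replicate block, counts of members called were 4 at NC10-14, 3 at NC10-12, 5 at NC13-14, 59 at NC14 and 73 on average, and 4 without light. RpS10a did not pass in that fit at NC10-14 (adjusted p = 0.0547) or NC10-12 (adjusted p = 0.0829).

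Library depth ran from 4382299 to 41210334 counts. RpL37-2 and RpL10Aa rest on few counts, with 0 in some libraries, and RpS10a varied between embryos of a group from 0 to 403 counts.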
